A study of Mus musculus with 36 samples.

Results

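Articular cartilage RNA collected 4 weeks after destabilization of the medial meniscus (DMM) was compared with RNA from the unoperated opposite knee. The comparison used the 6 week-4 RNA libraries of a series of 36 samples. These were 3 libraries of the operated right leg (DMM) and 3 of the left leg, which had no surgery (control), chosen by the titles that GEO gives them. The mice were male C57BL/6J mice operated at 12 weeks of age with no transgene, and cartilage was microdissected from the knees. For RNA, 9 mice were used per time point and the tissue of 3 knees was pooled per library, so a library is a pool and not an animal. Both groups come from the same animals, there was no sham operation, and the operated knee was always the right one, so side, surgery and joint instability cannot be told apart. The question was which genes and pathways differed between operated and control cartilage at this early stage of osteoarthritis (OA), beyond the genes that the study names.

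Articular cartilage lines the joint surface, and its only resident cell, the chondrocyte, keeps up a matrix of type II collagen and aggrecan that is rich in sulphated glycosaminoglycans. In DMM, the ligament that anchors the medial meniscus is cut, the joint becomes unstable, and cartilage wear with outgrowth of new cartilage and bone at the joint margin follows over weeks. Chondrocytes under load or injury can take on features of hypertrophic cells or of fibroblasts, while the synovium, ligaments, muscle and marrow that border the cartilage each carry their own marker genes.

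Raw counts per library ranged from 47843461 to 50066012 in control and from 33105311 to 42964188 in DMM over all RefSeq rows. Levels are given as CPM, a gene's count scaled to a fixed library total and corrected by edgeR's TMM factors, and where 3 values are given they are those of replicates 1, 2 and 3. Fold changes are log2 fold changes of DMM against control from edgeR's quasi-likelihood fit with their standard error (n = 3 per group), and a value above 0 is higher in DMM. RNA of the cartilage genes Col2a1 and Acan was present in every library. Col2a1 measured 1478, 1267 and 1024 CPM in the control libraries and 2110, 1450 and 779 CPM in the DMM libraries. Acan measured 801, 685 and 406 CPM in the control libraries and 661, 319 and 266 CPM in the DMM libraries. RNA of neighbouring tissues was also present and unevenly spread. The summed level of 77 skeletal muscle contractile genes was 36830, 12000 and 10570 CPM in control and 6252, 3353 and 1526 CPM in DMM, so control 1 held the most, and the 2 groups did not overlap. The summed level of 13 erythroid genes was 10850, 14260 and 31580 CPM in control and 10750, 22530 and 19840 CPM in DMM, so control 3 held the most. That of 14 neutrophil and marrow granule genes, 13100 to 38600 CPM in control and 19520 to 28270 CPM in DMM, was also highest in control 3. The summed level of 24 chondrocyte genes was 39650, 29350 and 16460 CPM in control and 22000, 14040 and 11450 CPM in DMM. In control 3, DMM 2 and DMM 3 it lay below both the erythroid and the granule sum, and in the other libraries above both. In bulk tissue, fewer cells of a type and less RNA per cell cannot be told apart.

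**Figure D1:**
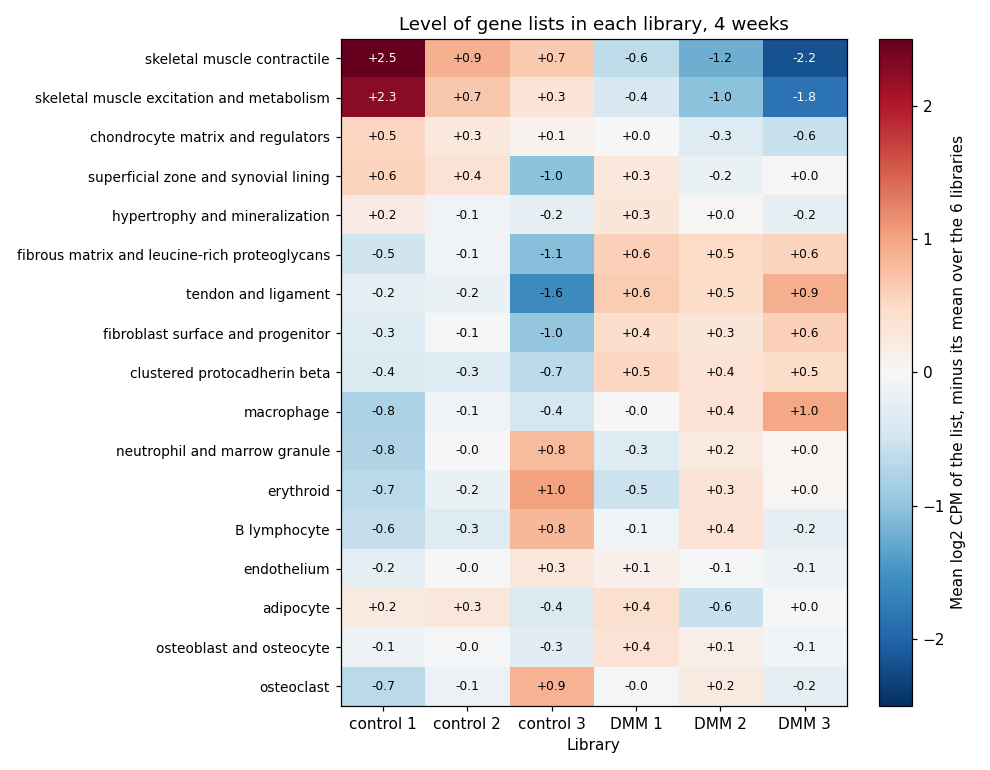
Level of 17 gene lists in each of the 6 libraries, as the mean log2 CPM of a list's members minus its mean over the 6 libraries. Rows are lists, columns are libraries, and colour and printed number give the same value. Both muscle lists are highest in control 1 and lower in every DMM library than in every control library, the erythroid, neutrophil, B lymphocyte and osteoclast lists are highest in control 3, and the fibrous matrix, tendon, fibroblast and protocadherin lists are higher in every DMM library than in every control library.

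Of 15181 genes that passed the filter on low counts, 7206 were higher and 7975 lower in DMM, with a median log2 fold change of −0.03. edgeR's quasi-likelihood test called 2 genes at an adjusted p under 0.05 (0.0132% of genes tested), both lower in DMM, and 2086 genes had an unadjusted p under 0.05, of which 925 were higher and 1161 lower. DESeq2, the tool that the study's methods name, called 512 genes (3.37%), of which 197 were higher (1.30% of genes tested) and 315 lower (2.07%). With the genes of both muscle lists left out before normalization, DESeq2 called 337 genes, 171 higher and 166 lower, and all 337 were among the 512. Genes that muscle expresses but the lists lack may remain among them. The groups did not overlap in 3214 genes (21.2%), with the lowest DMM library above the highest control in 1722 (11.3%) and the highest DMM library below the lowest control in 1492 (9.83%). These shares are the background against which the counts of each gene list are read. With 1 library left out the background itself moved, since fewer libraries overlap less often. Without control 3, 20.2% of genes were higher and 20.6% lower without overlap, and without DMM 1 the shares were 22.5% and 24.6%. DESeq2 called 198 to 1592 genes with 1 library left out, the fewest without DMM 3 and the most without DMM 1. A gene is written as called only with the tool that called it, and other values are given as levels.

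The named higher genes included secreted matrix proteins, fibroblast surface proteins, growth factors and neural adhesion proteins. Of 211 genes with a mean of at least 1 CPM, groups that did not overlap and at least a log2 fold change of 1 that the study does not name, the 20 with the smallest edgeR p had adjusted p values of 0.102 to 0.185 by edgeR, and DESeq2 called each of them. Kcnj15, an inwardly rectifying potassium channel, measured 6.16, 6.30 and 4.61 CPM in the control libraries and 20.8, 19.7 and 28.9 CPM in the DMM libraries. Its lowest DMM library was above its highest control library, and the log2 fold change was 2.02 ± 0.25 (DESeq2's adjusted p = 6.25e-10). Slitrk6, a leucine-rich repeat membrane protein of neurite outgrowth and synapse formation, measured 7.54, 10.5 and 13.2 CPM in the control libraries and 38.1, 38.0 and 42.7 CPM in the DMM libraries, a log2 fold change of 1.93 ± 0.24 (DESeq2's adjusted p = 2.25e-09). The DMM libraries of Slitrk6 lay close together and well clear of the controls. Il11, a cytokine of the interleukin 6 family made by stromal cells, was low in control with 1.09, 0.539 and 0.512 CPM and measured 4.30, 2.83 and 4.07 CPM in DMM. It was higher in every DMM library, by a log2 fold change of 2.39 ± 0.39 (DESeq2's adjusted p = 9.7e-06). Igf1, the main growth factor for cartilage matrix synthesis, measured 44.0, 61.8 and 40.2 CPM in the control libraries and 123, 186 and 266 CPM in the DMM libraries, and its log2 fold change was 1.98 ± 0.31 (DESeq2's adjusted p = 4.92e-06). Fam180a, a gene for a secreted protein, measured 7.05, 6.79 and 2.37 CPM in the control libraries and 34.6, 78.0 and 44.7 CPM in the DMM libraries, and all DMM libraries were higher than all control libraries (log2 fold change 3.28 ± 0.48).

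Of the same 20 genes, the RefSeq table of promoter sequences (GRCm38.p6) held at least 1 promoter for 13. A window from 250 bases before to 50 bases after the start of transcription held TGANTCA for 4 of these 13 genes. N is any base, so this pattern is looser than TGA(C/G)TCA, the motif bound by AP-1 (Fos and Jun) factors. The pattern is the same on both strands. It was found for 810 of 11948 tested genes with a promoter (6.78%) and in 2565 of all 32851 promoters in the table (7.81%). The motif was chosen with the gene list known, so these shares are no test. A match is a description, not a bound site. The 120 bases before the start site of those 4 genes are shown, 5′ to 3′ on the strand of the gene, with the motif in capitals. They were chosen because they are the named higher genes with a match.
Slitrk6 (chr14:110755150-110755269, minus strand): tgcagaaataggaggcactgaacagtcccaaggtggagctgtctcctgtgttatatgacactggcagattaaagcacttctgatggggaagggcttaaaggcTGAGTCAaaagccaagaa
Fam180a (chr6:35326142-35326261, minus strand): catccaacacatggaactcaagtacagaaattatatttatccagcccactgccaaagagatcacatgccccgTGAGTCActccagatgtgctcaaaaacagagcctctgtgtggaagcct
Il11 (chr7:4778142-4778261, minus strand, 1 of 2 promoters in the table): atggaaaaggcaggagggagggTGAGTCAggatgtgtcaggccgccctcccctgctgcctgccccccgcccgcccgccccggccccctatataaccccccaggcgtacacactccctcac
Igf1 (chr10:87860991-87861110, plus strand): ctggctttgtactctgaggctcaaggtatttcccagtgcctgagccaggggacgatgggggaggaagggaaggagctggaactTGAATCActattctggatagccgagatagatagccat
The motif began 18 bases before the start for Slitrk6, 48 for Fam180a, 98 for Il11 and 37 for Igf1. The stretches of Il11 and Igf1 lie inside the annotated genes (chr7:4772373-4782907 and chr10:87858265-87937047). Each of these 2 genes also has an annotated start further upstream. The letters were TGAGTCA in the first 3 genes and TGAATCA, which only the looser pattern admits, in Igf1. Of 10 genes with a promoter among the 14 named lower genes outside the muscle lists, 1 held the motif (Lrrc2, after the start site). Of 4 genes with a promoter among the 6 named lower genes of any list, 1 held it (Myh1, 196 bases before the start). Its letters, TGATTCA, also match only the looser pattern. The log2 fold changes of the AP-1 subunit genes Jun, Junb, Jund, Fosb, Fosl1 and Fosl2 ran from −0.76 for Jun to 0.05 for Fosl1, and their groups overlapped.

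The other named higher genes fell into a few kinds by known role. Igsf10, a secreted immunoglobulin superfamily protein, averaged 19.6 ± 3.37 CPM (SD, n = 3) in control against 55.1 ± 7.62 CPM in DMM. Dio2, the deiodinase that turns thyroxine into the active thyroid hormone, averaged 3.94 ± 0.213 CPM (SD, n = 3) in control against 10.7 ± 2.05 CPM in DMM. Angptl1, an angiopoietin-like secreted protein, averaged 26.5 ± 12.0 CPM (SD, n = 3) in control against 111 ± 26.0 CPM in DMM. Enpep, the aminopeptidase that trims angiotensin II, averaged 19.1 ± 4.63 CPM (SD, n = 3) in control against 46.0 ± 7.43 CPM in DMM. Cpxm1, a carboxypeptidase family member, averaged 17.1 ± 1.502 CPM (SD, n = 3) in control against 40.7 ± 10.3 CPM in DMM, and Ncald, a neuronal calcium sensor, averaged 7.87 ± 1.52 CPM (SD, n = 3) in control against 18.9 ± 1.44 CPM in DMM. Fam167a averaged 5.05 ± 0.784 CPM (SD, n = 3) in control against 12.9 ± 1.7 CPM in DMM. By the rule that chose these 7 genes, their groups did not overlap and their log2 fold changes were at least 1. The fold changes ran from 1.25 for Cpxm1 to 2.06 for Angptl1.

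**Figure D2:**
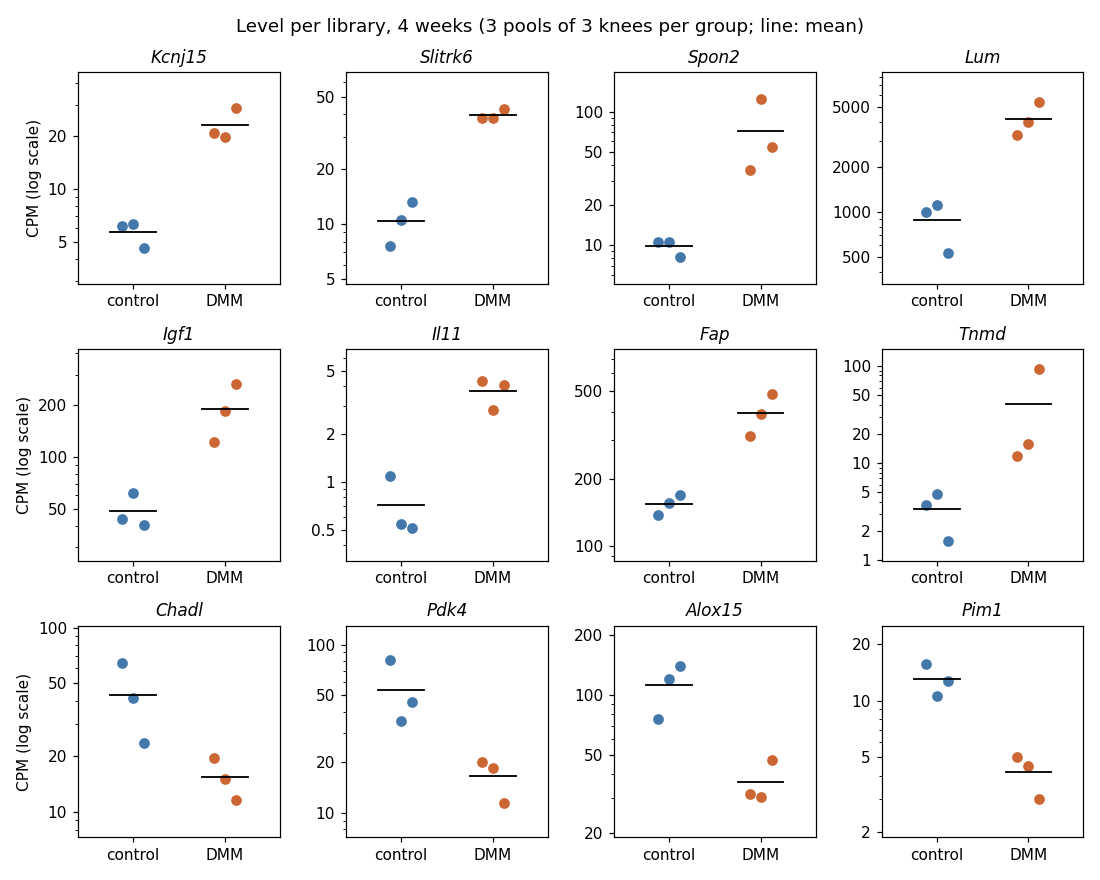
Level of 12 genes in each library in CPM on a log axis, with 3 control points, 3 DMM points and the group mean as a line. The first 8 genes are higher in every DMM library than in every control library and the last 4 are lower. Tnmd has 1 DMM library at 94.3 CPM far above the other DMM libraries.

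Genes of fibrous connective tissue were mostly higher in DMM. Of 24 fibrous collagens, glycoproteins and small leucine-rich proteoglycans, 22 were higher and 2 lower in DMM, 14 had groups that did not overlap, all higher, and DESeq2 called 10, again all higher. The median log2 fold change was 0.74 against −0.03 over all genes. Lum (lumican, a proteoglycan that spaces collagen fibrils) measured 998, 1114 and 532 CPM in the control libraries and 3256, 3990 and 5392 CPM in the DMM libraries, a log2 fold change of 2.26 ± 0.38 (DESeq2's adjusted p = 9.88e-08). Every DMM library exceeded the highest control library, as the rule for named genes required. Spon2, a secreted spondin that binds integrins, measured 10.6, 10.5 and 8.19 CPM in the control libraries and 36.5, 125 and 54.5 CPM in the DMM libraries (log2 fold change 2.88 ± 0.44, DESeq2's adjusted p = 9.82e-08), with DMM 2 the highest. Mfap4, a microfibril-associated glycoprotein, averaged 1.55 ± 1.24 CPM (SD, n = 3) in control against 18.4 ± 16.4 CPM in DMM (log2 fold change 3.56 ± 0.81). Postn (periostin, a matricellular protein of periosteum and ligament) averaged 128 ± 68.2 CPM (SD, n = 3) in control against 494 ± 164 CPM in DMM, Dpt (dermatopontin) 55.7 ± 31.5 CPM (SD, n = 3) in control against 219 ± 56.5 CPM in DMM, and Cthrc1, a secreted protein of repairing tissue, 27.0 ± 9.80 CPM (SD, n = 3) in control against 74.4 ± 18.3 CPM in DMM. DESeq2 called all 4 of Mfap4, Postn, Dpt and Cthrc1 higher.

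Within this list the fibril collagens differed among themselves. Col3a1, the collagen of young and repairing tissue, measured 1769, 2450 and 296 CPM in the control libraries and 5539, 3486 and 3543 CPM in the DMM libraries, and its groups did not overlap although neither tool called it (log2 fold change 1.48 ± 0.66). Col5a2 averaged 313 CPM in control against 513 CPM in DMM and Col12a1 31.5 CPM in control against 70.4 CPM in DMM, and the groups of both did not overlap. Col1a1 and Col1a2, the chains of bone and tendon type I collagen, averaged 2705 CPM in control against 2793 CPM in DMM and 3503 CPM in control against 3842 CPM in DMM, with log2 fold changes of 0.05 ± 0.50 and 0.13 ± 0.43. The most abundant members, Dcn (decorin) and Sparc (osteonectin), averaged 10480 CPM in control against 18120 CPM in DMM and 10640 CPM in control against 13790 CPM in DMM. All 3 DMM libraries of Dcn were above the controls, while those of Sparc overlapped them. The members below 0 were Prelp and Spon1. DESeq2 called 5 members higher without DMM 2, 5 without DMM 3 and 6 without control 1.

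**Figure D3:**
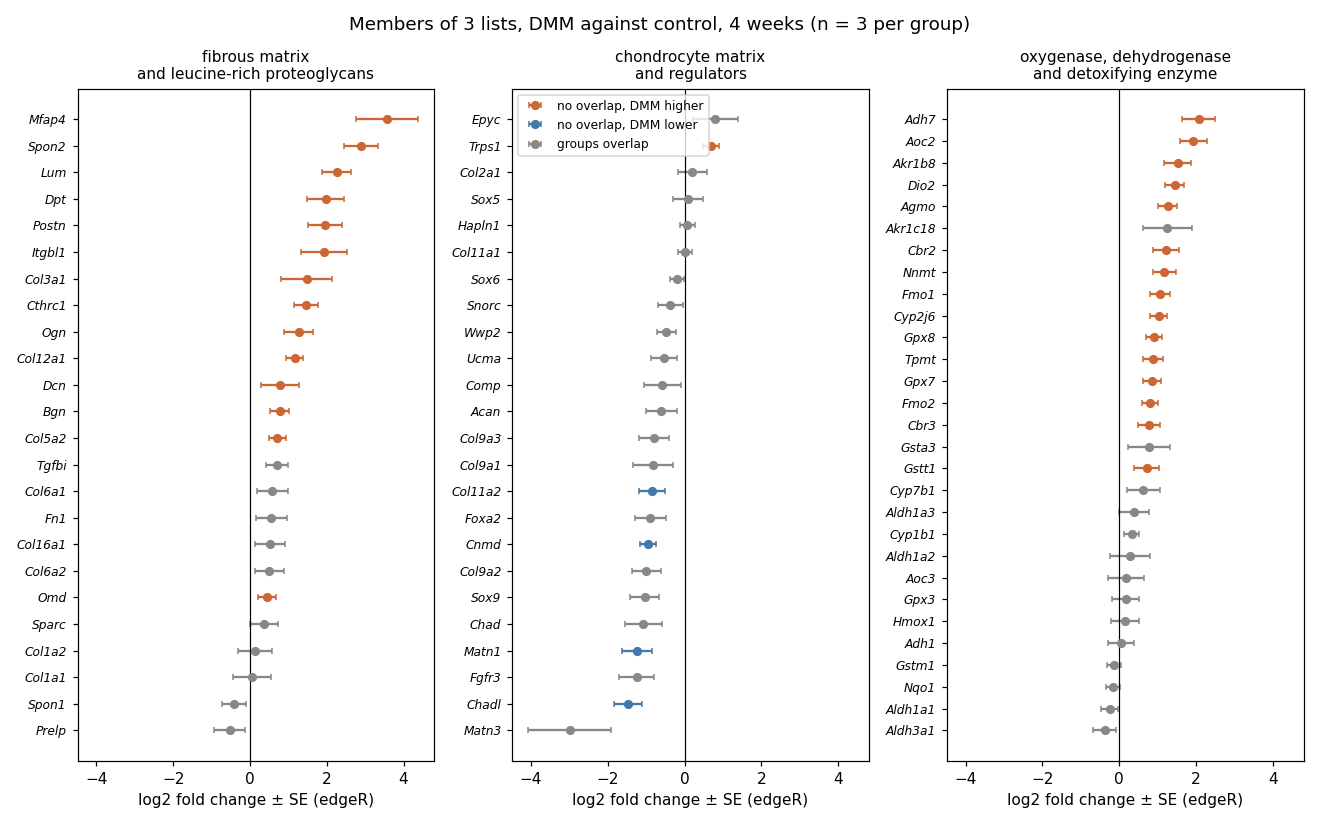
The log2 fold change of DMM against control with its standard error for each member tested of 3 lists (n = 3 per group). Orange points have all 3 DMM libraries above all controls, blue points all below, and grey points overlap. Members of the fibrous matrix list and of the enzyme list lie mostly to the right of 0, and 18 of 24 chondrocyte genes lie to the left.

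Markers of tendon and ligament and of the fibroblast surface were higher together with the matrix. Of 12 tendon and ligament genes, 11 were higher, 6 had groups that did not overlap, all higher, and DESeq2 called 4 (median log2 fold change 0.58). Tnmd (tenomodulin, the marker of mature tenocytes) measured 3.72, 4.77 and 1.59 CPM in the control libraries and 11.8, 15.8 and 94.3 CPM in the DMM libraries (log2 fold change 3.60 ± 0.85, DESeq2's adjusted p = 0.0147). DMM 3 carried most of the DMM level, and the other DMM libraries were still above all controls. Kera (keratocan, a corneal and tendon proteoglycan) measured 5.79, 6.64 and 0.646 CPM in the control libraries and 18.9, 24.0 and 63.5 CPM in the DMM libraries, and Tnn (tenascin-N, a matrix protein of periosteum and ligament) measured 9.09, 8.89 and 2.10 CPM in the control libraries and 67.9, 50.6 and 22.0 CPM in the DMM libraries. Kera was highest in DMM 3 and Tnn in DMM 1, and DESeq2 called both higher. Ptx4, a pentraxin, averaged 0.469 CPM in control against 3.99 CPM in DMM. The tendon transcription factors differed less, with 9.78 CPM in control against 14.7 CPM in DMM for Scx and 16.1 CPM in control against 21.9 CPM in DMM for Mkx, and the most abundant members, Fibin and Tnc, averaged 640 CPM in control against 672 CPM in DMM and 308 CPM in control against 365 CPM in DMM with overlapping groups. The list was lowest in control 3, the library with the most marrow RNA. Without that library 7 of 12 members had DMM above control (58.3% against 20.2% of all genes) and DESeq2 called 4. Without control 1 it called 2.

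Of 15 fibroblast surface and progenitor genes tested (Tcf21 did not pass the filter), 13 were higher, 9 had groups that did not overlap in that direction and 1 in the other, and DESeq2 called 8 higher (median 0.89). Fap, a serine protease of activated fibroblasts, measured 137, 156 and 170.3 CPM in the control libraries and 314, 394 and 485 CPM in the DMM libraries (log2 fold change 1.36 ± 0.22, DESeq2's adjusted p = 1.41e-05). Antxr1, a collagen-binding receptor also known as an anthrax toxin receptor, measured 18.0, 24.0 and 13.8 CPM in the control libraries and 50.3, 52.3 and 91.7 CPM in the DMM libraries (log2 fold change 1.80 ± 0.31). In both genes the groups did not overlap, as the rule for named genes required. Pdgfra, the PDGF receptor of mesenchymal progenitors, averaged 66.7 ± 22.5 CPM (SD, n = 3) in control against 142 ± 18.7 CPM in DMM. Thy1 (CD90) averaged 1.55 ± 0.274 CPM (SD, n = 3) in control against 4.03 ± 0.930 CPM in DMM, Ly6a (Sca-1) 161 ± 75.2 CPM (SD, n = 3) in control against 474 ± 141 CPM in DMM and S100a4 127 ± 60.6 CPM (SD, n = 3) in control against 317 ± 53.7 CPM in DMM. DESeq2 called these 4 and also Islr and Ddr2. Pi16, a marker of adventitial fibroblasts, was the member whose DMM libraries all lay below control (27.4 CPM in control against 20.1 CPM in DMM). DESeq2 called 4 of the 15 higher without control 1 and 2 without DMM 2 or DMM 3.

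Some contractile genes of myofibroblasts and smooth muscle were higher, at low levels, and 4 of 12 members were lower. Acta2 (smooth muscle actin) measured 43.4, 35.9 and 21.8 CPM in the control libraries and 55.9, 79.0 and 98.4 CPM in the DMM libraries, Tagln (transgelin) averaged 10.4 CPM in control against 23.0 CPM in DMM and Actg2 0.846 CPM in control against 2.89 CPM in DMM. DESeq2 called these 3, and of 12 members 5 had groups that did not overlap, all higher (median 0.52). DESeq2's calls fell to 0 without control 2, DMM 2 or DMM 3 and were 5 without DMM 1. Cald1 and Myh11 completed the 5, while the most abundant members, Cnn2 and Vcl, averaged 316 CPM in control against 271 CPM in DMM and 139 CPM in control against 139.8 CPM in DMM and overlapped. Rgs5, a marker of pericytes, averaged 26.6 ± 6.37 CPM (SD, n = 3) in control against 68.8 ± 24.0 CPM in DMM and was called by DESeq2, but it was the only one of 10 pericyte genes to be called or to have groups that did not overlap, and the pericyte median was −0.04. Without DMM 3 no pericyte gene was called. The most abundant pericyte genes, Ndufa4l2 and Cspg4, averaged 343 CPM in control against 196 CPM in DMM and 91.7 CPM in control against 79.6 CPM in DMM. Endothelial genes had a median of −0.16, with 3 of 14 members higher without overlap (Emcn, Pecam1 and Tek) and none called by DESeq2. That was 21.4% of the list, against 21.2% of all genes tested (11.3% higher). Plvap, the other abundant endothelial gene, averaged 91.3 CPM in control against 70.5 CPM in DMM.

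Genes that define the chondrocyte were lower on balance. Of 24 chondrocyte matrix and regulator genes, 18 were lower and 6 higher, with a median log2 fold change of −0.70. Groups did not overlap in 4 lower genes and 1 higher gene, and DESeq2 called 2, both lower. The share without overlap was 20.8% of the list, near the 21.2% of all genes tested. Cnmd (chondromodulin, an angiogenesis inhibitor of avascular cartilage) measured 136, 88.9 and 126 CPM in the control libraries and 57.4, 61.5 and 61.6 CPM in the DMM libraries (log2 fold change −0.96 ± 0.20, DESeq2's adjusted p = 0.00447). Chadl, a chondroadherin-like protein that restrains collagen fibril formation, measured 64.1, 41.6 and 23.7 CPM in the control libraries and 19.6, 15.1 and 11.6 CPM in the DMM libraries (log2 fold change −1.48 ± 0.37, DESeq2's adjusted p = 0.00942). In both, every DMM library was below every control library. Chad (chondroadherin) was the most abundant member with 29160, 21080 and 11430 CPM in the control libraries and 13540, 8471 and 7200 CPM in the DMM libraries, and its groups overlapped, with control 3 below DMM 1. Comp averaged 3427 CPM in control against 2295 CPM in DMM and also overlapped. Sox9, the master transcription factor of chondrocytes, averaged 197 ± 78.2 CPM (SD, n = 3) in control against 96.1 ± 39.3 CPM in DMM, Fgfr3 149 ± 56.2 CPM (SD, n = 3) in control against 62.7 ± 37.4 CPM in DMM and Matn3 14.0 ± 20 CPM (SD, n = 3) in control against 1.76 ± 0.724 CPM in DMM. Neither tool called these 3 and their groups overlapped. Matn1 and Col11a2 did not overlap, at 1.67 CPM in control against 0.697 CPM in DMM and 221 CPM in control against 122 CPM in DMM. Trps1, a repressor of hypertrophy, was the single gene higher without overlap (87.5 CPM in control against 141 CPM in DMM). For other matrix genes, the log2 fold change was 0.20 ± 0.38 for Col2a1, 0.07 ± 0.20 for Hapln1 and −0.60 ± 0.40 for Acan.

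The chondrocyte result depended on which libraries were compared. The summed level of the 24 genes was 39650, 29350 and 16460 CPM in control and 22000, 14040 and 11450 CPM in DMM, so control 3 lay below DMM 1. Without control 3 DESeq2 called 7 lower genes and 15 members had DMM below control, against a background of 20.6% lower, and without DMM 1 it called 9, while without control 1, DMM 2 or DMM 3 it called none. The median log2 fold change ran from −0.99 without DMM 1 to −0.44 without control 1. The summed muscle level had the same order of libraries within each group, replicate 1 the highest and replicate 3 the lowest, and its part in the chondrocyte values was not tested.

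Genes of the joint surface were split in direction. Of 12 superficial zone and synovial lining genes, 6 were higher and 6 lower (median 0.03). Cd55, a complement inhibitor of the synovial lining, measured 71.5, 88.2 and 61.6 CPM in the control libraries and 119, 155 and 249 CPM in the DMM libraries (log2 fold change 1.24 ± 0.29, DESeq2's adjusted p = 0.00989) and was higher in every DMM library. Clic5 averaged 64.5 CPM in control against 123 CPM in DMM without overlap. Prg4 (lubricin), which coats the joint surface, averaged 14760 ± 5036 CPM (SD, n = 3) in control against 9359 ± 1889 CPM in DMM and Cilp, a matrix protein of the intermediate zone, 15350 ± 6654 CPM (SD, n = 3) in control against 6916 ± 3147 CPM in DMM, and their groups overlapped. Control 3 was the lowest of all 6 libraries in the mean log2 level of this list, and without it DESeq2 called 5 of the 12 lower and 1 higher. Without DMM 2 or DMM 3 it called none.

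Genes of hypertrophy and mineralization, the programme of the growth plate, had a median of 0.12. Their summed level was 18580, 15700 and 12990 CPM in control and 23290, 23160 and 24770 CPM in DMM, without overlap. Ibsp (bone sialoprotein) measured 5827, 3650 and 3235 CPM in the control libraries and 8239, 8888 and 7585 CPM in the DMM libraries and was called by DESeq2 (log2 fold change 0.96 ± 0.35, adjusted p = 0.0294). Spp1 (osteopontin), the most abundant member, averaged 7011 ± 546 CPM (SD, n = 3) in control against 10710 ± 2182 CPM in DMM and did not overlap, and no other member did. Col10a1, the collagen of hypertrophic cartilage, averaged 1156 CPM in control against 1251 CPM in DMM, Runx2 34.8 CPM in control against 33.7 CPM in DMM and Alpl 808 CPM in control against 887 CPM in DMM. Vegfa averaged 114 CPM in control against 55.8 CPM in DMM (log2 fold change −1.03 ± 0.33) with groups that overlapped. Of 13 osteoblast and osteocyte genes, 5 were higher without overlap, among them Tmem119 (85.9 CPM in control against 156 CPM in DMM, called by DESeq2), Bglap2, an osteocalcin gene (89.1 CPM in control against 149.9 CPM in DMM), Phex and Mepe (645 CPM in control against 864 CPM in DMM), and the median was 0.20. Bglap averaged 453 CPM in control against 643 CPM in DMM. No hypertrophy gene was called higher without control 2, DMM 2 or DMM 3, and no osteoblast gene without control 1, DMM 2 or DMM 3. DESeq2 called 2 hypertrophy genes lower without control 3 and 1 without DMM 1.

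Enzymes that build glycosaminoglycan chains were mostly lower by small amounts. Of 33 genes, 26 were lower and 7 higher, with a median of −0.29, but 3 did not overlap in the higher and 3 in the lower direction, near the background of 11.3% and 9.83%. Without DMM 1, 14 were lower without overlap (42.4% against 24.6% of all genes) and 8 called lower. Without control 3 the numbers were 12 (36.4% against 20.6%) and 4. Hs3st3b1, a heparan sulphate sulphotransferase, measured 33.8, 24.7 and 13.9 CPM in the control libraries and 12.2, 6.64 and 4.24 CPM in the DMM libraries (log2 fold change −1.65 ± 0.45, DESeq2's adjusted p = 0.0133). Its neighbour in function Hs3st3a1 averaged 42.5 CPM in control against 14.5 CPM in DMM, also without overlap. Dsel, an epimerase-like enzyme of dermatan sulphate, went the other way with 19.6, 20.3 and 13.3 CPM in the control libraries and 33.0, 31.7 and 39.6 CPM in the DMM libraries (log2 fold change 0.97 ± 0.23, DESeq2's adjusted p = 0.0102). Xylt1, which starts the chains, averaged 47.3 CPM in control against 19.6 CPM in DMM with overlap. The most abundant members, Ugdh, which makes the glucuronic acid donor, and Csgalnact2, averaged 329 CPM in control against 470.3 CPM in DMM and 328 CPM in control against 273 CPM in DMM.

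Genes that remodel or process matrix differed singly. Of 24 proteases and inhibitors, 5 were higher and 1 lower without overlap, and DESeq2 called the same numbers, with a median of 0.03. The groups did not overlap in 25% of the list, against 21.2% of all genes tested. Mmp2 (gelatinase A) measured 243, 254 and 148 CPM in the control libraries and 777, 479 and 455 CPM in the DMM libraries (log2 fold change 1.41 ± 0.31, DESeq2's adjusted p = 0.00151), and its groups stood apart. Adamts12, a metalloprotease that cleaves Comp, measured 1.05, 1.25 and 1.16 CPM in the control libraries and 3.16, 2.86 and 4.24 CPM in the DMM libraries (log2 fold change 1.56 ± 0.30, DESeq2's adjusted p = 0.000643). Mmp19 averaged 9.71 CPM in control against 20.9 CPM in DMM, the serine protease Prss23 40.3 CPM in control against 80.3 CPM in DMM and the inhibitor Timp1 85.3 CPM in control against 192 CPM in DMM, all without overlap. Timp4, another inhibitor, was the lower member with 24.6, 14.5 and 12.4 CPM in the control libraries and 7.54, 5.24 and 5.63 CPM in the DMM libraries (log2 fold change −1.48 ± 0.32, DESeq2's adjusted p = 0.00154). The aggrecanases Adamts4 and Adamts5 averaged 2.97 CPM in control against 2.29 CPM in DMM and 34.1 CPM in control against 51.1 CPM in DMM with overlapping groups, as did the abundant Timp3 (2063 CPM in control against 1409 CPM in DMM) and Ctsk (786 CPM in control against 1300 CPM in DMM). Higher calls by DESeq2 numbered 2 without DMM 2 or DMM 3 and 3 without control 1.

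The groups did not overlap in 25% of the elastic fibre and microfibril genes, against 21.2% of all genes tested (11.3% higher). Of the 16 genes, 4 were higher without overlap and DESeq2 called 1 (median 0.22). That gene was Mfap2, a microfibril protein that binds fibrillin, with 22.4, 21.5 and 17.5 CPM in the control libraries and 47.3, 44.1 and 76.2 CPM in the DMM libraries (log2 fold change 1.45 ± 0.25, DESeq2's adjusted p = 0.000164). Mfap5 averaged 34.6 CPM in control against 101.2 CPM in DMM, Fbn1 (fibrillin 1) 35.3 CPM in control against 63.1 CPM in DMM and Fbn2 2.25 CPM in control against 3.68 CPM in DMM. Lox, the collagen and elastin crosslinking enzyme, averaged 493 CPM in control against 273 CPM in DMM and Ltbp1 128 CPM in control against 152 CPM in DMM, with overlap. Among 25 collagen processing genes, Fkbp7, a prolyl isomerase of the endoplasmic reticulum, was called by DESeq2 (89.0 CPM in control against 169.5 CPM in DMM), and Loxl1 (27.8 CPM in control against 45.0 CPM in DMM), Pcolce, the enhancer of procollagen cleavage (290.1 CPM in control against 540 CPM in DMM), P4ha3 and the collagen chaperone Serpinh1 (804 CPM in control against 1047 CPM in DMM) were also higher without overlap. The median of that list was −0.13, with 15 of 25 members lower. Its share without overlap was 20%, against 21.2% of all genes tested (11.3% higher). Without control 3, 7 of the 25 were lower without overlap (28% against 20.6% of all genes) and 3 called lower. The elastic fibre median ran from −0.09 without DMM 1 to 0.43 without control 2.

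**Figure D4:**
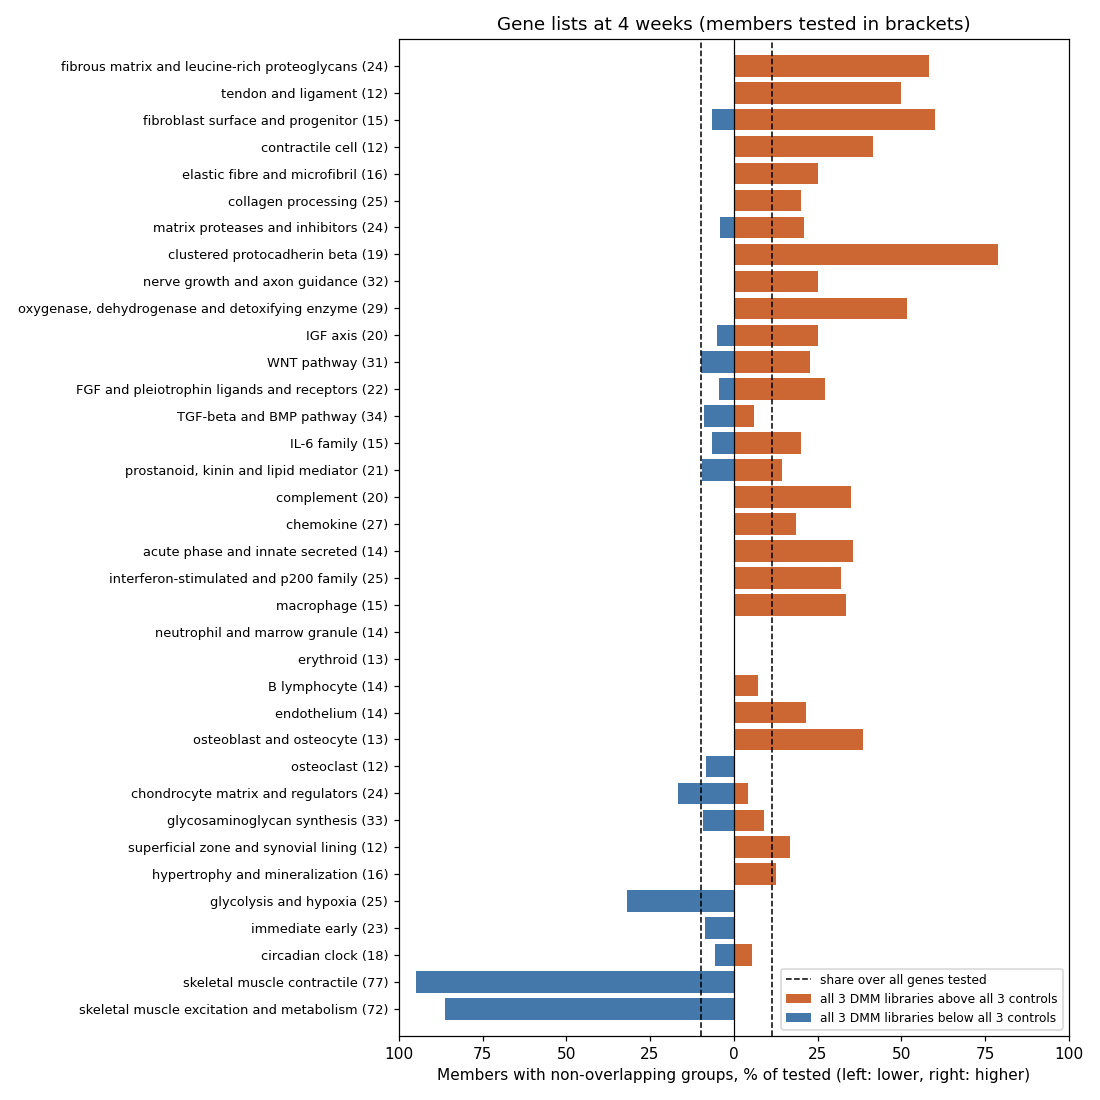
Share of tested members whose groups do not overlap for 36 gene lists, with members higher in DMM to the right and lower to the left. Dashed lines give the shares over all 15181 genes, 11.3% higher and 9.83% lower. The protocadherin beta, fibroblast, fibrous matrix, enzyme and tendon lists reach furthest to the right and both skeletal muscle lists furthest to the left.

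Growth factor pathways differed in single members, and whether whole lists differed was not tested. In the insulin-like growth factor (IGF) axis, 5 of 20 genes were higher and 1 lower without overlap (median 0.26). These made up 30% of the list, against 21.2% of all genes tested. Beside Igf1, the target Socs2, an inhibitor of growth hormone signalling, averaged 14.9 ± 1.55 CPM (SD, n = 3) in control against 25.4 ± 4.28 CPM in DMM and was called higher by DESeq2. Cish, a related inhibitor, measured 9.42, 11.2 and 5.79 CPM in the control libraries and 3.33, 1.97 and 4.41 CPM in the DMM libraries and was called lower (log2 fold change −1.45 ± 0.38, DESeq2's adjusted p = 0.0136). Pappa2, a protease that frees IGF from its binding proteins, averaged 0.844 CPM in control against 1.63 CPM in DMM without overlap. The receptor Igf1r averaged 31.0 CPM in control against 23.4 CPM in DMM and the abundant binding proteins Igfbp7 and Igfbp5 804 CPM in control against 1096 CPM in DMM and 413 CPM in control against 534 CPM in DMM, all with overlap. Lower genes without overlap numbered 4 without control 3 (20%) and 5 without DMM 1 (25%), near the 20.6% and 24.6% of all genes. DESeq2's lower calls ran from 0 to 3 with 1 library left out.

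In the WNT pathway, 7 of 31 genes tested were higher and 3 lower without overlap, and DESeq2 called 4 higher and 2 lower (median 0.08). The groups did not overlap in 32.3% of the list, against 21.2% of all genes tested. Ndp (norrin), a ligand of Frizzled 4, measured 2.86, 1.99 and 1.43 CPM in the control libraries and 7.88, 4.51 and 12.5 CPM in the DMM libraries (log2 fold change 1.98 ± 0.43, DESeq2's adjusted p = 0.0012). Rspo2, an R-spondin that strengthens WNT signals, averaged 12.3 ± 2.95 CPM (SD, n = 3) in control against 25.7 ± 3.74 CPM in DMM, and both it and the inhibitor Sfrp2 (3.01 CPM in control against 12.0 CPM in DMM) were called higher. Dact2, an intracellular modulator, averaged 0.290 CPM in control against 0.955 CPM in DMM. Wnt4, a ligand, measured 7.18, 3.29 and 3.07 CPM in the control libraries and 1.47, 1.08 and 1.02 CPM in the DMM libraries (log2 fold change −1.92 ± 0.42, DESeq2's adjusted p = 0.00173), and Lgr6, a receptor for R-spondins, measured 244, 201 and 124 CPM in the control libraries and 108, 68.6 and 45.3 CPM in the DMM libraries (log2 fold change −1.36 ± 0.36, DESeq2's adjusted p = 0.0171). Both lay below control in every DMM library. The direct target Axin2 averaged 1.77 CPM in control against 1.53 CPM in DMM, and the abundant secreted inhibitors Wif1 and Sfrp4 averaged 2009 CPM in control against 2026 CPM in DMM and 256 CPM in control against 536 CPM in DMM, the second without overlap. Wnt2 and Wnt2b did not pass the filter. DESeq2 called 0 WNT genes higher without DMM 3 and 2 without control 1 or DMM 2, and it called 5 lower without control 3.

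With all 6 libraries, 14.7% of the TGF-beta and BMP genes had groups that did not overlap, against 21.2% of all genes tested. Of 34 genes, 21 were lower (median −0.37), but 3 were lower and 2 higher without overlap. The lower count turned on single libraries. Without control 3, 15 were lower without overlap (44.1% against 20.6% of all genes) and DESeq2 called 4 lower. Without DMM 1, 15 were lower without overlap (44.1% against 24.6%) and it called 9 lower. Without each other library, 3 were lower without overlap. Fstl1, a secreted follistatin-like protein, measured 198, 259 and 128 CPM in the control libraries and 437, 370.4 and 599 CPM in the DMM libraries and was called higher (log2 fold change 1.27 ± 0.31, DESeq2's adjusted p = 0.00781). Id4, an inhibitor of differentiation and BMP target, measured 258, 91.7 and 32.2 CPM in the control libraries and 41.4, 19.3 and 23.8 CPM in the DMM libraries and was called lower by DESeq2 (adjusted p = 0.0176), although its groups overlapped. Ccn2 (CTGF), the most abundant member and a target of TGF-beta and of load, averaged 3589 ± 996 CPM (SD, n = 3) in control against 1827 ± 615 CPM in DMM and did not overlap. The ligand Tgfb1 averaged 139 CPM in control against 89.5 CPM in DMM and Inhba (activin A) 62.3 CPM in control against 110.3 CPM in DMM, with overlap. The members lower without overlap besides Ccn2 were Fstl3 and Bmp5.

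Among 22 fibroblast growth factor and pleiotrophin genes, 6 were higher and 1 lower without overlap (median 0.05). That was 31.8% of the list, against 21.2% of all genes tested. Ptn (pleiotrophin), a heparin-binding factor of early cartilage, measured 3.62, 3.29 and 0.727 CPM in the control libraries and 8.05, 11.9 and 12.0 CPM in the DMM libraries (log2 fold change 2.07 ± 0.53, DESeq2's adjusted p = 0.00559). Its receptor Ptprz1 averaged 26.4 CPM in control against 40.5 CPM in DMM and its relative Mdk (midkine) 8.02 CPM in control against 11.8 CPM in DMM, both without overlap. Sdc2, a heparan sulphate coreceptor, averaged 269.4 ± 92.7 CPM (SD, n = 3) in control against 598 ± 122 CPM in DMM and Fgf14, an intracellular member of the family, 0.207 CPM in control against 1.04 CPM in DMM, and DESeq2 called both. Dusp4, a phosphatase induced by ERK signalling, was called lower (2.37 CPM in control against 1.01 CPM in DMM). Sdc3 averaged 354 CPM in control against 238 CPM in DMM with overlap. Without DMM 3 DESeq2 called none of the list and without DMM 2 it called 1.

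In the interleukin 6 family, Il11 and the oncostatin M receptor Osmr (39.1, 58.4 and 37.8 CPM in the control libraries and 73.3, 85.1 and 86.9 CPM in the DMM libraries) were called higher by DESeq2, and Cntfr, the ciliary neurotrophic factor receptor, lower (13.0 CPM in control against 1.92 CPM in DMM), the last with overlapping groups. Il6ra, the receptor for interleukin 6, was lower without overlap (20.7 CPM in control against 14.1 CPM in DMM). The shared receptor Il6st averaged 223 CPM in control against 283 CPM in DMM, the receptor Il11ra1 56.4 CPM in control against 60.7 CPM in DMM and Jak1 255 CPM in control against 260.3 CPM in DMM. The target Socs3 averaged 36.1 CPM in control against 31.9 CPM in DMM, and the list's median was −0.18. The median ran from −0.27 without control 3 to 0.08 without DMM 3. Without control 3, 4 members were lower without overlap (26.7% against 20.6% of all genes). Without DMM 1 there were 5 (33.3% against 24.6%).

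All tested clustered protocadherin beta genes, which encode cell surface proteins that give neurons an identity and share long stretches of sequence, were higher in DMM. Of 22 members, 19 passed the filter, and Pcdhb1, Pcdhb2 and Pcdhb13 did not. Of the 19, 15 had all 3 DMM libraries above all controls, DESeq2 called 4 and the median log2 fold change was 0.83. Pcdhb10 measured 0.593, 0.795 and 0.673 CPM in the control libraries and 2.23, 2.54 and 2.16 CPM in the DMM libraries (log2 fold change 1.74 ± 0.30, DESeq2's adjusted p = 0.000426) and Pcdhb16 1.94, 2.58 and 1.51 CPM in the control libraries and 8.42, 4.51 and 3.86 CPM in the DMM libraries (log2 fold change 1.47 ± 0.38). The most abundant members, Pcdhb9 and Pcdhb14, averaged 5.91 CPM in control against 9.44 CPM in DMM and 6.14 CPM in control against 8.84 CPM in DMM, and Pcdhb4 averaged 1.11 CPM in control against 2.82 CPM in DMM. The summed level of the 19 was 42.1, 44.3 and 34.6 CPM in control and 73.8, 63.8 and 74.8 CPM in DMM. All members are low, and reads that match several near-identical members cannot be assigned to one with certainty, so the genes are not independent measurements. With each library left out in turn, 15 to 17 of 20 members tested did not overlap, all higher (75 to 85%). Over all genes, 12.4 to 22.5% were higher without overlap. DESeq2 called 0 without DMM 2, 1 without control 1, 3 without DMM 3 and 2 without each of the other libraries.

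Of 32 nerve growth and axon guidance genes tested, 8 were higher and none lower without overlap, and the median was 0.03. Those 8 made up 25% of the list. Over all genes, 21.2% had groups that did not overlap in either direction and 11.3% in the higher direction. DESeq2 called Slitrk6, Sema3d, Sema3a and Epha4. Sema3a, a semaphorin that repels sensory axons and favours bone formation, measured 18.1, 27.9 and 11.1 CPM in the control libraries and 40.1, 46.2 and 73.1 CPM in the DMM libraries (log2 fold change 1.48 ± 0.37, DESeq2's adjusted p = 0.01). Sema3d averaged 46.6 ± 7.28 CPM (SD, n = 3) in control against 88.9 ± 5.74 CPM in DMM, and the ephrin receptor Epha4 2.43 ± 0.323 CPM (SD, n = 3) in control against 5.01 ± 0.301 CPM in DMM. Ngfr, a neurotrophin receptor, and the factor Gdnf did not pass the filter. DESeq2 called 1 of the list without DMM 2 and 2 without DMM 3. Ntn4 and Sema3c, the most abundant members, averaged 199 CPM in control against 76.4 CPM in DMM and 77.7 CPM in control against 144 CPM in DMM. Markers of Schwann cells, which wrap peripheral axons, were lower in 9 of 10 members tested (median −0.67), with none called. The groups did not overlap in 20% of them, against 21.2% of all genes tested. Erbb3, lower without overlap, averaged 2.06 CPM in control against 1.10 CPM in DMM, Pmp22, the member higher without overlap, 436 CPM in control against 740.4 CPM in DMM and Cnp 145 CPM in control against 116 CPM in DMM, and Sox10 and Pmp2 did not pass the filter. Without control 3, 6 Schwann cell genes were lower without overlap (54.5% against 20.6% of all genes) and 2 called. The share was 27.3 to 30% without control 1, DMM 1 or DMM 2, against 11.6 to 24.6% of all genes. It was 9.09% without control 2 or DMM 3, against 12.5% and 10.9%. In these other settings none was called.

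Most of the listed enzymes that oxidize, reduce or conjugate small molecules were higher in DMM. Like the other lists, this one was drawn up with earlier results of these data known. Its counts describe its members and are no test. Of 29 tested, 25 were higher, 15 had groups that did not overlap, all higher, and DESeq2 called 13, with a median of 0.78. Aoc2, a copper amine oxidase, measured 0.757, 1.31 and 1.40 CPM in the control libraries and 4.25, 3.43 and 5.63 CPM in the DMM libraries (log2 fold change 1.93 ± 0.35, DESeq2's adjusted p = 0.000107). Agmo, which cleaves ether lipids, averaged 13.1 ± 1.80 CPM (SD, n = 3) in control against 31.4 ± 7.75 CPM in DMM, and Adh7, which oxidizes retinol, 0.618 ± 0.302 CPM (SD, n = 3) in control against 2.58 ± 0.506 CPM in DMM. The flavin monooxygenases Fmo1 and Fmo2 averaged 17.3 CPM in control against 36.2 CPM in DMM and 9.06 CPM in control against 15.8 CPM in DMM. The reductases Akr1b8 and Cbr2 averaged 8.24 CPM in control against 23.8 CPM in DMM and 34.3 CPM in control against 79.9 CPM in DMM, and Gpx7 and Gpx8, peroxidases of the endoplasmic reticulum, 26.2 CPM in control against 47.2 CPM in DMM and 99.9 CPM in control against 187 CPM in DMM. Nnmt, which methylates nicotinamide, averaged 17.4 CPM in control against 39.4 CPM in DMM. DESeq2 called all of these. The groups overlapped for Nqo1, which averaged 34.1 CPM in control against 30.6 CPM in DMM, and Hmox1, at 125 CPM in control against 139 CPM in DMM. The most abundant members, Gpx3 and Gstm1, averaged 2598 CPM in control against 2914 CPM in DMM and 237 CPM in control against 215 CPM in DMM with overlap. With each library left out in turn, 16 or 17 of the 29 were higher without overlap (55.2 to 58.6%), against 12.4 to 22.5% of all genes. DESeq2 called 3 without DMM 3, 6 without DMM 2, 7 without control 2 and 9 or more otherwise.

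Lipid mediator genes showed single differences on both sides. Ptgfr, the receptor for prostaglandin F2 alpha, measured 11.4, 15.9 and 10.5 CPM in the control libraries and 23.9, 39.0 and 64.7 CPM in the DMM libraries (log2 fold change 1.75 ± 0.37, DESeq2's adjusted p = 0.00102). Bdkrb1, the inducible bradykinin receptor of injured tissue, measured 0.658, 0.823 and 0.296 CPM in the control libraries and 1.64, 2.19 and 1.86 CPM in the DMM libraries (log2 fold change 1.68 ± 0.41, DESeq2's adjusted p = 0.0195). Both were higher in every DMM library, as was Pla2g5, a secreted phospholipase (13.7 CPM in control against 24.1 CPM in DMM). Alox15, a lipoxygenase of eosinophils and macrophages, was lower with 75.8, 120.2 and 140.3 CPM in the control libraries and 31.4, 30.5 and 46.8 CPM in the DMM libraries (log2 fold change −1.63 ± 0.28, DESeq2's adjusted p = 9.56e-05). The prostaglandin synthases Ptgs1 and Ptges averaged 128 CPM in control against 102 CPM in DMM and 18.4 CPM in control against 16.5 CPM in DMM, and the abundant Ptgis and Alox12 282 CPM in control against 241 CPM in DMM and 246 CPM in control against 186 CPM in DMM. Over the 21 genes tested the median was −0.11. DESeq2 called 1 higher without control 1 or DMM 2. When control 3 was left out, 7 were lower without overlap (33.3% against 20.6% of all genes). Without DMM 1 the share was 28.6% (against 24.6%) and without control 1 it was 19% (against 16.7%). Without control 2, DMM 2 or DMM 3 it was 9.52%, against 10.9 to 12.5% of all genes.

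Innate immune genes were higher on balance, and DMM 3 was often the highest library. Of 15 macrophage genes tested, 14 were higher, 5 had groups that did not overlap, all higher, and DESeq2 called 3 (median 0.79). Lyz1, a lysozyme close in sequence to Lyz2, measured 7.64, 10.7 and 7.51 CPM in the control libraries and 23.9, 31.5 and 74.6 CPM in the DMM libraries (log2 fold change 2.33 ± 0.43, DESeq2's adjusted p = 3.87e-05). Gpr34 and Fcrls, markers of tissue macrophages, measured 24.8, 34.6 and 20.6 CPM in the control libraries and 54.6, 61.7 and 131 CPM in the DMM libraries and 3.92, 9.54 and 7.76 CPM in the control libraries and 13.1, 19.9 and 38.5 CPM in the DMM libraries. In all 3 genes DMM 3 was the highest of the 6 libraries. The defining markers Csf1r and Adgre1 averaged 274 CPM in control against 284 CPM in DMM and 84.3 CPM in control against 146 CPM in DMM and Lyz2 3784 CPM in control against 5347 CPM in DMM, with overlap. The summed level of the list was 2765, 4411 and 6439 CPM in control and 4245, 6418 and 8624 CPM in DMM, so control 3 lay above DMM 1 and DMM 2, and without DMM 3 the list's median was 0.34. DESeq2 called 2 members without DMM 3 or control 1 and 5 without control 2.

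The complement genes had a median of 0.79, with 7 of 20 higher and none lower without overlap and 3 called by DESeq2. The called genes were Cd55, C1s1, a protease of the classical pathway (50.4, 53.6 and 21.3 CPM in the control libraries and 81.4, 83.9 and 164 CPM in the DMM libraries), and C3ar1, the receptor for C3a (22.1, 55.1 and 19.9 CPM in the control libraries and 59.0, 66.2 and 187 CPM in the DMM libraries). C1s1 and C3ar1 were above control in every DMM library. The inhibitor Serping1 averaged 395 ± 183 CPM (SD, n = 3) in control against 828 ± 227 CPM in DMM, without overlap and without a call. Clu (clusterin), the most abundant member, averaged 7170 CPM in control against 4250 CPM in DMM and C3 itself 223 CPM in control against 248 CPM in DMM. DESeq2 called none of the list without DMM 2 or DMM 3 and 6 higher without DMM 1, and the median was 0.44 without DMM 3.

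Among 27 chemokine genes tested, 24 were higher, 5 without overlap, and DESeq2 called 3, among them Ccl21a and Ccl8 (median 0.45). Those 5 made up 18.5% of the list. Over all genes, 21.2% had groups that did not overlap in either direction and 11.3% in the higher direction. Ccl21a, a chemokine of lymphatic vessels with near-identical copies, measured 2.77, 6.05 and 0.592 CPM in the control libraries and 16.3, 11.6 and 27.2 CPM in the DMM libraries (log2 fold change 2.55 ± 0.71). Ccl8, a monocyte attractant, measured 4.54, 9.45 and 5.09 CPM in the control libraries and 12.7, 10.7 and 58.4 CPM in the DMM libraries, higher in every DMM library. The abundant Cxcl12 and Ccl6 averaged 579 CPM in control against 598 CPM in DMM and 218 CPM in control against 223 CPM in DMM, and the inflammatory Ccl2 5.36 CPM in control against 5.03 CPM in DMM, with no separation of the groups. Without control 1 or without DMM 3 DESeq2 called none of the chemokine genes, and without control 3 it called 2. The median was 0.07 without DMM 3.

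Of 14 acute phase and innate secreted genes tested, 5 were higher without overlap, and DESeq2 called Wfdc12, Ang and Rnase4 (median 0.38). Rnase4, a secreted ribonuclease that shares its promoter with Ang, measured 144, 210 and 82.1 CPM in the control libraries and 266, 315 and 563 CPM in the DMM libraries, and Ang (angiogenin) measured 9.88, 15.1 and 8.13 CPM in the control libraries and 18.2, 22.5 and 39.8 CPM in the DMM libraries. Wfdc12 averaged 0.109 CPM in control against 0.927 CPM in DMM, with DMM 3 the highest. Lbp, which binds lipopolysaccharide, averaged 196 CPM in control against 353 CPM in DMM without overlap. The abundant Chil3 and Lcn2, made by myeloid cells of the marrow, averaged 1469 CPM in control against 1585 CPM in DMM and 994 CPM in control against 1125 CPM in DMM and overlapped. Saa1, Saa2, Orm2 and Wfdc18 did not pass the filter. No member was called without DMM 3, 1 without control 1 and 5 without DMM 1.

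Interferon genes were higher in part. Of 25 tested, 8 were higher without overlap, and DESeq2 called Ifi204, Ifi207 and Ifi211 of the p200 family of nucleic acid sensors and Phf11d (median 0.37). Ifi204 measured 16.6, 28.8 and 22.7 CPM in the control libraries and 43.6, 50.5 and 89.9 CPM in the DMM libraries (log2 fold change 1.43 ± 0.32, DESeq2's adjusted p = 0.00457) and Phf11d measured 8.26, 9.94 and 8.19 CPM in the control libraries and 14.9, 16.5 and 23.4 CPM in the DMM libraries (log2 fold change 1.05 ± 0.24). The groups overlapped for the other 17 members, among them the interferon targets Isg15, which averaged 20.4 CPM in control against 21.8 CPM in DMM, Rsad2 156 CPM in control against 167 CPM in DMM and Irf7 32.1 CPM in control against 25.3 CPM in DMM. The p200 genes are close copies of each other, so their reads may be shared. DESeq2 called none without DMM 3 and 1 without DMM 2 or control 1. When control 3 was left out, 13 of 25 were higher without overlap (52% against 20.2% of all genes).

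Marrow and blood markers gave no call in 4 lists. Neutrophil and marrow granule genes had a median of −0.08, erythroid genes −0.16, B lymphocyte genes −0.08 and T and NK lymphocyte genes 0.03, and DESeq2 called none of the 54 members tested. Csf3r averaged 119 CPM in control against 74.1 CPM in DMM, Cebpe 34.1 CPM in control against 25.1 CPM in DMM, Ngp 5855 CPM in control against 5722 CPM in DMM and S100a8 4478 CPM in control against 5190 CPM in DMM. In the erythroid list Slc4a1 averaged 669.5 CPM in control against 414 CPM in DMM, Klf1 113 CPM in control against 72.3 CPM in DMM, Hbb-bs 6716 CPM in control against 6714 CPM in DMM and Hba-a1, a copy of Hba-a2, 3753 CPM in control against 3367 CPM in DMM. Of the lymphocyte genes, Ebf1, a B cell factor that stromal cells also express, was the 1 member whose groups did not overlap (44.4 CPM in control against 71.1 CPM in DMM). Spib averaged 36.5 CPM in control against 18.9 CPM in DMM, Cd79b 83.0 CPM in control against 90.2 CPM in DMM, Cd79a 67.8 CPM in control against 60.8 CPM in DMM, Il7r 10.6 CPM in control against 15.0 CPM in DMM, Gzma 3.42 CPM in control against 4.35 CPM in DMM and Nkg7 78.0 CPM in control against 71.6 CPM in DMM. The medians of these 4 lists ran from −0.43 to −0.21 without control 1 and from 0.37 to 0.48 without control 3. Without control 3 DESeq2 called 2 B lymphocyte genes higher, and without control 1 it called 1 neutrophil gene lower.

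Epx (eosinophil peroxidase) was the exception among granulocyte genes, with 185, 229.6 and 342 CPM in the control libraries and 112, 73.2 and 86.0 CPM in the DMM libraries. Every DMM library was below every control library, as the rule for named genes required (log2 fold change −1.48 ± 0.28, DESeq2's adjusted p = 0.000306). Prg2, the eosinophil major basic protein, averaged 1527 ± 241 CPM (SD, n = 3) in control against 942 ± 479 CPM in DMM with overlap, and Cma1, a mast cell protease, 0.563 CPM in control against 1.79 CPM in DMM. The median of the 14 eosinophil and mast cell genes was −0.40, and it was 0.10 without control 3. Without DMM 3, 6 were lower without overlap (40% against 10.9% of all genes). Without DMM 2, 3 were higher (20% against 14.1% of all genes) and 1 lower (6.67% against 11.6%) without overlap. In that setting DESeq2 called 2 higher and 1 lower. Adipocyte genes had a median of −0.15 with no call (3 lower calls without DMM 1), at 71.9 CPM in control against 95.7 CPM in DMM for Adipoq, 112 CPM in control against 153 CPM in DMM for Fabp4 and 844 CPM in control against 577 CPM in DMM for Car3. In the osteoclast list, Itgb3 was called lower by DESeq2 (107 CPM in control against 64.9 CPM in DMM), and Car2 averaged 1519 CPM in control against 1510 CPM in DMM. The median was −0.13, and without control 3 it was 0.65, with 2 members called higher.

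The 2 genes that edgeR called were both almost absent from DMM. Both passed the filter on low counts only through the control group, where they are high. With at least 10 counts in every library, edgeR called 0 genes. BC018473, a long non-coding RNA gene (chr11:116752167-116757883 in GRCm38.p6), had 177, 160 and 89 counts in the control libraries and 1, 0 and 0 in the DMM libraries. Its edgeR adjusted p was 0.0136, and the level summed over libraries was 327 times higher in control, with a 95% exact interval of 58.4 to 12940 that covers counting error only. Igfn1, a protein of the muscle Z-disc, had 61, 64 and 65 counts in control and 1, 3 and 1 in DMM (edgeR's adjusted p = 0.0136). The ratio was 29.2 (12.3 to 90.8). No other gene of the 15181 reached the edgeR threshold, and a looser adjusted p of 0.1 added 1 gene.

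Igfn1 belongs to the skeletal muscle genes, which were lower nearly throughout. Of 77 contractile genes tested, 76 were lower, 73 had groups that did not overlap, all lower, and DESeq2 called 66, with a median of −2.65. Of 72 genes of muscle excitation and metabolism, all were lower, 62 without overlap, and DESeq2 called 55 (median −2.41). Myh1, the fast myosin of type IIx fibres, measured 277, 168 and 111 CPM in the control libraries and 17.7, 14.9 and 7.08 CPM in the DMM libraries (log2 fold change −3.81 ± 0.46, DESeq2's adjusted p = 5.53e-15). Myh7, the slow myosin, measured 115, 8.94 and 6.44 CPM in control and 3 counts in all in DMM, a ratio of 1038 (355 to 5035). Its level in control 1 was far above the other controls, and Sln (sarcolipin) had the same pattern, with 1739 counts in all in control and 3 in DMM. Mhrt, a non-coding RNA whose gene overlaps Myh7, had 2 counts in DMM and cannot be told apart from Myh7 where reads are counted without strand. Mss51, a mitochondrial regulator of muscle, measured 57.6, 34.8 and 18.5 CPM in the control libraries and 4.13, 1.49 and 3.01 CPM in the DMM libraries, and Smtnl1 averaged 14.6 CPM in control against 0.761 CPM in DMM. The abundant Acta1 and Tpm1 averaged 3601 CPM in control against 586 CPM in DMM and 1821 CPM in control against 461 CPM in DMM, and Aldoa and Atp2a1 2777 CPM in control against 1221 CPM in DMM and 3041 CPM in control against 468 CPM in DMM. Without control 1 the medians were −1.83 and −1.53, and DESeq2 called 42 and 26 members, all lower. It called 31 of the second list without DMM 2 and 29 without DMM 3. The labels name cartilage only, and whether muscle was dissected with it was not tested.

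**Figure D5:**
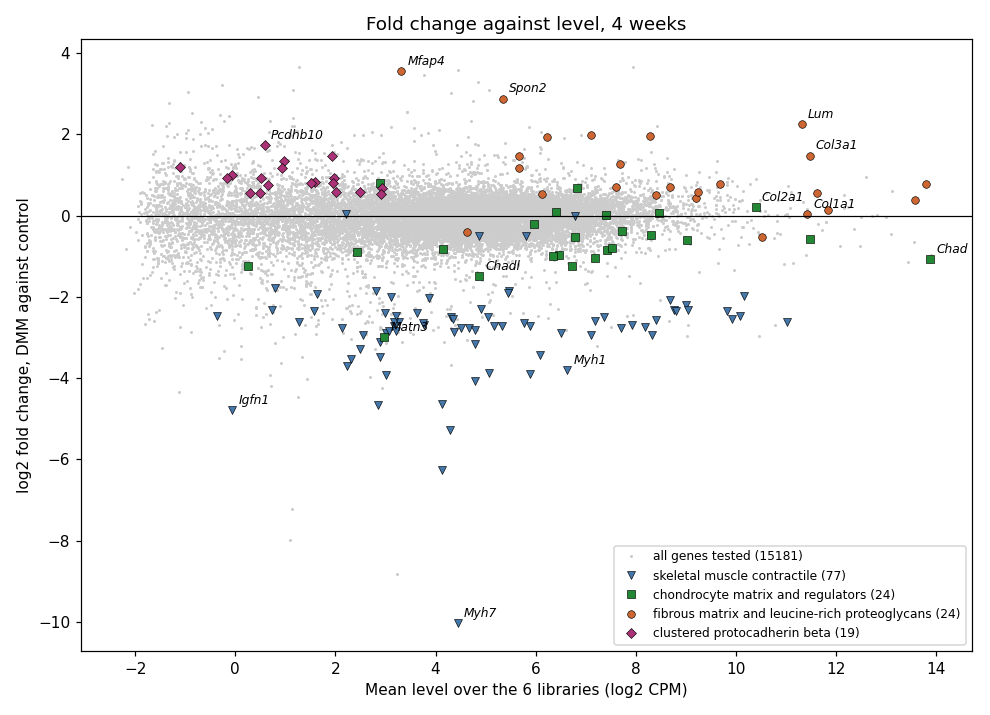
The log2 fold change of DMM against control for each of 15181 genes (grey) against its mean level in log2 CPM, with 4 gene lists in colour. Muscle contractile genes lie far below 0, the fibrous matrix and protocadherin beta genes above it, and most chondrocyte genes between 0 and −1.5.

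Outside the muscle lists, the lower genes were of mixed function. The lists do not hold every gene that muscle can express, so these genes are not known to be free of muscle RNA. Pim1, a kinase induced by cytokines, measured 15.7, 10.6 and 12.8 CPM in the control libraries and 5.01, 4.48 and 3.01 CPM in the DMM libraries (log2 fold change −1.64 ± 0.28, DESeq2's adjusted p = 2.24e-05). Sstr2, a somatostatin receptor, measured 3.36, 2.87 and 2.13 CPM in the control libraries and 0.842, 0.762 and 0.720 CPM in the DMM libraries, and Sctr, the secretin receptor, 3.03, 1.22 and 1.59 CPM in the control libraries and 0.253, 0.159 and 0.212 CPM in the DMM libraries. All 3 were below control in every DMM library, as the rule that chose them required, and were called by DESeq2. Tigd4, a gene derived from a transposon, measured 2.11, 2.39 and 1.45 CPM in the control libraries and 0.0421, 0.127 and 0.339 CPM in the DMM libraries, and Pla2g4e, a phospholipase family member, 5.37, 2.24 and 1.78 CPM in the control libraries and 0.337, 0.127 and 0.0424 CPM in the DMM libraries. Adgrg5, an adhesion receptor, averaged 2.98 CPM in control against 0.874 CPM in DMM, Odf3l2 4.03 CPM in control against 0.539 CPM in DMM, Lrrc2 10.8 CPM in control against 1.73 CPM in DMM and Ankrd9 31.2 CPM in control against 12.7 CPM in DMM. DESeq2 called these 6 too. Of the 14 named lower genes outside the muscle lists, 10 were highest in control 1, the library with the most muscle RNA. These were BC018473, Sctr, Pla2g4e, Pim1, Sstr2, Mhrt, Odf3l2, Lrrc2, Ankrd9 and Pdk4. Alox15 and Epx were highest in control 3 and Tigd4 and Adgrg5 in control 2. The part of muscle RNA in these values was not tested.

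Genes of glucose use and low oxygen were lower nearly throughout. Of 25 members, 24 were lower and 1 was higher, 8 had groups that did not overlap, all lower, and DESeq2 called 3 (median −0.52). Car9, a carbonic anhydrase induced by hypoxia, measured 16.8, 19.5 and 7.89 CPM in the control libraries and 6.74, 4.26 and 5.38 CPM in the DMM libraries (log2 fold change −1.43 ± 0.37, DESeq2's adjusted p = 0.0113). Car14 averaged 5.51 CPM in control against 1.17 CPM in DMM and Hk2, the hexokinase of muscle and hypoxic cells, 33.0 ± 14.8 CPM (SD, n = 3) in control against 15.3 ± 0.273 CPM in DMM. The glucose transporter Slc2a1 averaged 155 CPM in control against 92.4 CPM in DMM, with overlap, and the abundant Pkm and Tpi1 1295 CPM in control against 902 CPM in DMM and 631 CPM in control against 502 CPM in DMM. Without control 1 the median was −0.39, 9 members did not overlap, all lower (36% against 16.7% of all genes), and DESeq2 called none. It called 8 without control 3, 1 without control 2 and none without DMM 2 or DMM 3. Skeletal muscle uses many of the same genes, and its part in these values was not tested.

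Pdk4, which shuts pyruvate out of mitochondria in fasting, measured 81.1, 35.1 and 45.8 CPM in the control libraries and 20.1, 18.4 and 11.4 CPM in the DMM libraries (log2 fold change −1.695 ± 0.35, DESeq2's adjusted p = 0.00102). Klf15, a glucocorticoid-induced factor, measured 115, 81.7 and 39.4 CPM in the control libraries and 38.7, 22.6 and 19.4 CPM in the DMM libraries (log2 fold change −1.55 ± 0.41, DESeq2's adjusted p = 0.0144). Both were lower in every DMM library, which for Pdk4 the rule for named genes required. Of the other 13 glucocorticoid and fasting genes DESeq2 called none, with 44.9 CPM in control against 31.1 CPM in DMM for Fkbp5, 458 CPM in control against 398 CPM in DMM for Tsc22d3 and 413 CPM in control against 447 CPM in DMM for Sgk1, and the list's median was −0.20. Without control 3, 7 of the 15 were lower without overlap (46.7% against 20.6% of all genes) and 4 called lower. Without DMM 1 the numbers were 4 (26.7% against 24.6%) and 4. Immediate early genes, which react within minutes to handling and load, were lower in 21 of 23 members (median −0.50), but 2 of 23 were lower without overlap, below the background share. Without control 3, 13 were lower without overlap (56.5% against 20.6% of all genes) and DESeq2 called 4 lower. Without control 2 or DMM 3, 2 were lower without overlap (8.7% against 12.5% and 10.9%) and none was called. Nr4a1 measured 57.7, 36.2 and 19.5 CPM in the control libraries and 18.2, 11.5 and 10.1 CPM in the DMM libraries and was the 1 member that DESeq2 called with all libraries. Dusp1 averaged 335 CPM in control against 180.4 CPM in DMM and Klf6 186 CPM in control against 201 CPM in DMM.

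In the circadian clock, Cry1, a repressor, measured 30.0, 25.4 and 28.3 CPM in the control libraries and 18.9, 12.2 and 10.4 CPM in the DMM libraries, and Clock, an activator, 11.6, 14.5 and 15.4 CPM in the control libraries and 20.9, 24.96 and 25.1 CPM in the DMM libraries. DESeq2 called both, Cry1 lower and Clock higher, and no other of the 18 genes was called or had groups that did not overlap (median −0.33). Without control 3, 7 were lower without overlap (38.9% against 20.6% of all genes) and 3 called lower. Without DMM 1 there were 4 called lower, and without each other library none was called. The median ran from −0.64 without control 3 to −0.04 without control 1. Bhlhe40 and Nr1d1 averaged 299 CPM in control against 254 CPM in DMM and 260.2 CPM in control against 192 CPM in DMM. Heat shock and unfolded protein genes had a median of −0.03, at 9.93 CPM in control against 5.55 CPM in DMM for Trib3, 10.01 CPM in control against 5.88 CPM in DMM for Chac1, 1591 CPM in control against 1607 CPM in DMM for Hspa5 and 875 CPM in control against 1165 CPM in DMM for Hsp90b1, and cell division genes −0.06, at 151 CPM in control against 91.4 CPM in DMM for Mcm2, 59.8 CPM in control against 39.7 CPM in DMM for Plk1, 353 CPM in control against 253 CPM in DMM for Rrm2 and 206 CPM in control against 199 CPM in DMM for Ccna2. DESeq2 called none of these 40 genes, and 3 heat shock and unfolded protein genes lower without control 3. The cell division median ran from −0.34 without control 1 to 0.44 without control 3. Of 20 ribosome biogenesis genes, 2 were called lower by DESeq2, Rbm19 (12.8 CPM in control against 6.19 CPM in DMM) and Rrp12 (15.0 CPM in control against 8.57 CPM in DMM), with 287 CPM in control against 374 CPM in DMM for Ncl, 80.7 CPM in control against 89.5 CPM in DMM for Wdr43 and a median of 0.03. Neither was called without control 1, control 2, DMM 2 or DMM 3.

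The difference of these effects from those at 12 weeks after surgery was tested as the interaction of group and week over all 12 RNA libraries. Of 15604 genes tested, edgeR's quasi-likelihood test called 0 at an adjusted p under 0.05, with 1913 at an unadjusted p under 0.05. No gene is therefore described as particular to the earlier time point. Among the genes named here, the interaction p was smallest for BC018473, whose log2 fold change in that fit was −7.98 at 4 weeks and 1.10 at 12 weeks. Myh7 came next at −10.04 and 2.94, then Aoc2 at 1.94 and −0.036 and Sstr2 at −1.83 and 0.65. Chadl was at −1.48 and 0.85 and Myh1 at −3.81 and 3.28 (edgeR's adjusted p = 0.402 for each). Among other muscle genes, Smtnl1 was at −4.25 and 0.83 and Aldoa at −1.18 and 0.051. Igfn1 (−4.79 and −2.02), Mss51 (−3.69 and −0.705) and Acta1 (−2.63 and −0.60) were below 0 at both weeks. So were Tpm1 (−1.98 and −0.51) and Atp2a1 (−2.71 and −0.26).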

How the data were processed

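RNA was sequenced from 3 control and 3 DMM pools of cartilage at 4 weeks. Per the labels and the methods, FLEXBAR was used for trimming, STAR for alignment to mm10 and featureCounts for counting per RefSeq transcript. The raw counts deposited by the authors are the unit used here. The labels and the methods describe different library kits, no molecular identifiers are described, and the strand setting is not given in the sources used here. RefSeq rows without a gene name (0.591 to 0.781% of counts) were left out, and of several rows of a gene the one with the highest mean count was kept. Genes were filtered with filterByExpr. The test was edgeR 4.0.16's quasi-likelihood test on TMM-scaled counts (R 4.3.3) with Benjamini-Hochberg adjustment over all genes tested, and DESeq2 1.42.0 was the alternative. Both were run on simulated counts with the same spread for every gene and no RNA of neighbouring tissues. That run does not show how either tool behaves on these uneven pools. Two-sided p-values set a group difference against the fitted spread between pools of a group. The main fit treats the groups as independent although both come from the same animals. Count intervals (95%, exact) cover counting error only.

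Each list is described by its counts and median without a test, beside all genes tested. Named genes were those not named by the study with a mean of at least 1 CPM, a log2 fold change of at least 1 and groups that did not overlap, the 20 higher, 6 lower and 14 lower outside the muscle lists with the smallest edgeR p. From each list, the 2 with the smallest p and the 2 most abundant genes were added, and other list members were chosen after their values were seen. The members and lists were chosen with earlier results of these data known. The overlap counts under other scalings, the list counts without each library and the test between weeks were added after seeing the data. Other alternatives changed the scaling, the filter, the fit, the RefSeq rows or the libraries used. Some genes that these rules select are not reported here.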

Additional observations from a re-analysis of the deposited data

How the results depend on the processing

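edgeR's 2 calls became 4 without the filter, 0 with at least 10 counts in every library, 5 with all 12 RNA libraries in 1 fit, 0 with edgeR's earlier method, 17 over all RefSeq rows and 1 with both muscle lists left out, 512 by DESeq2, and 0 to 61 with 1 library left out (61 without control 3, 8 without control 1, 0 without each other). The 2086 genes at an unadjusted p under 0.05 became 3179 with 12 libraries and 868 to 3696 with 1 library left out. DESeq2's 512 became 337 without the muscle lists and 198 to 1592 with 1 library left out (268 without control 1, 894 without control 3, 1592, 214 and 198 without DMM 1, 2 and 3). The 3214 genes whose groups did not overlap were 3223 with DESeq2's scaling and 3069 without the muscle lists. With a replicate block edgeR called 263 genes (27 higher, 236 lower) and DESeq2 806, but the labels do not state that replicate numbers pair pools. The deviations of same-numbered libraries correlated at 0.378, −0.362 and 0.084, and those of control 3 and DMM 2 at 0.478. With 3 pools per group and uneven RNA of neighbouring tissues, these values can neither show nor exclude shared mice. As edgeR called 2 genes in the main fit, nearly all named genes keep their side of its threshold by staying uncalled. Of 2941 comparisons for 185 named genes, 2717 kept direction and side of the threshold, 152 passed it newly, 11 lost it and 61, in 27 genes that edgeR did not call, changed sign. Those not from a left-out library were Car2 (0 without the filter, 0.01 with 12 libraries, 0.079 with the replicate block), Hbb-bs (0.008 without the filter and over all RefSeq rows, 0.018 with 12 libraries, 0.092 with the block), and with the block Ccna2 (0.134), Hspa5 (0) and Ngp (0.059). With 1 library left out, the log2 fold changes that changed sign ranged as follows: Bhlhe40 (−0.564 to 0.012), Car2 (−0.266 to 0.625), Ccl6 (−0.241 to 0.39), Ccna2 (−0.353 to 0.589), Cd79a (−0.429 to 0.439), Cd79b (−0.141 to 0.645), Chil3 (−0.16 to 0.521), Cnn2 (−0.462 to 0.159), Csf1r (−0.195 to 0.261), Cspg4 (−0.521 to 0.082), Cxcl12 (−0.108 to 0.343), Fibin (−0.226 to 0.463), Gpx3 (−0.125 to 0.371), Hba-a1 (−0.377 to 0.374), Hbb-bs (−0.273 to 0.627), Hspa5 (−0.158 to 0.146), Jak1 (−0.108 to 0.209), Lcn2 (−0.166 to 0.781), Ngp (−0.284 to 0.398), Nkg7 (−0.317 to 0.282), Rrm2 (−0.743 to 0.075), Rsad2 (−0.223 to 0.856), S100a8 (−0.094 to 0.789), Sgk1 (−0.152 to 0.363), Tnc (−0.063 to 0.76), Vcl (−0.174 to 0.178) and Wif1 (−0.237 to 0.318). Depth limits the genes with fewest counts, such as BC018473 in DMM.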
